A study of Mus musculus with 12 samples.

Results

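Interferon response genes are genes whose transcripts rise when a cell detects interferon, and 45 of them, named by symbol in a given list, are described here in cells carrying forms of the transcription factor ETV6. All 45 symbols were found among the 56748 genes of the deposited table, 1 gene each. Of the 45, 38 had at least 120 counts over the 12 libraries and are described first, and the other 7 are given apart. RNA was sequenced from Ba/F3, a pro-B line from the mouse that needs interleukin-3 (IL-3) to grow. All cells, controls included, carried NRAS G12D, a constantly active form of the signalling protein NRAS. The 4 groups had 3 libraries each and carried only the fluorescent marker ZsGreen (the control), ETV6 with an IRES and ZsGreen (ETV6 WT), ETV6 P214L with the same marker (P214L), or ETV6 I209S P214L with the same marker (I209S P214L). The ETS-family factor ETV6 represses transcription, and the constructs were added to a cell line, so each level is that of cells with an added gene. All cells were sorted into medium free of IL-3 on day 0, given fresh medium on day 2 and harvested on day 3. The design states that P214L creates a nuclear export sequence and asks whether breaking it with I209S gives transcripts like those of ETV6 WT. Whether libraries of the same group came from separate cultures is not stated in the labels, so the p-values may measure technical spread only.

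Type I interferons bind a receptor made of Ifnar1 and Ifnar2, whose kinases Jak1 and Tyk2 phosphorylate STAT proteins, Stat2 among them. Stat2 and Irf9 are parts of the factor ISGF3, which binds interferon-stimulated response elements in promoters. The genes switched on in this way include sensors of foreign RNA, enzymes that degrade or edit RNA, proteins that block virus entry or assembly, and the signalling proteins themselves, so the response can feed forward. In blood cells many of these genes also have a basal level set by other transcription factors.

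The 12 libraries held 14301683 to 18607595 counts each. Reads of 18S ribosomal RNA made up 1.58% of ETV6 WT 1 and 1.35% of I209S P214L 1, against 2.92% to 5.90% of the other 10 libraries. The ZsGreen libraries had the fewest genes with a count, 15706, 17481 and 17130, against 17510 to 20652 in the 9 with a form of ETV6. The lowest of those 9, I209S P214L 2 at 17510, lay next to ZsGreen 2, and the rest had 19400 to 20652. Mitochondrial genes held 1.304% to 1.348% of counts with ZsGreen against 1.007% to 1.295%, ranges that nearly meet. In every comparison with ZsGreen these shifts and the construct cannot be told apart. The authors' deposited comparisons include 1 named growth against functional, so growth without IL-3 may also differ with the construct. Growth was not measured here, and its part in any comparison was not tested. Counts of members are also given without ETV6 WT 1 and I209S P214L 1, and, for comparisons with ZsGreen, without ZsGreen 1. Against the labelled cell type, the B lineage markers Igll1, Rag1, Il7r and Ms4a1 had no count in any library, and only 3 of 14 listed B lineage markers were abundant enough to test. The summed level of the 14 was 40.7 to 53.7 CPM (counts scaled to the library size) in ZsGreen cells, 29.2 to 30.9 in ETV6 WT cells, 52.6 to 54.8 in P214L cells and 25.7 to 29.2 in I209S P214L cells. Bank1 alone averaged 33.9, 21.3, 39.9 and 19.6 CPM of this sum in the same order. Of the 3 tested, 1 was lower and 0 were higher with ETV6 WT than with ZsGreen. Markers of other blood cells also moved with the construct. The 14 neutrophil markers summed to 119.9 to 147 CPM in ZsGreen cells, 186 to 268 in ETV6 WT cells, 269 to 294 in P214L cells and 197 to 254 in I209S P214L cells, with 7 of the 8 tested lower and 1 higher with ETV6 WT than with ZsGreen, and Ly6g, Retnlg and Csf3r at 0. Cebpe alone averaged 70.9, 217, 149 and 204 CPM of this sum. The 14 monocyte and macrophage markers summed to 48.8 to 58.5, 133 to 148, 115 to 166 and 101 to 140.2 CPM in the same order, with 4 of 6 lower and 1 higher with ETV6 WT and Ly6c2, C1qa and C1qb at 0, and Adgre1 alone averaged 19.9, 127, 52 and 109 CPM. For 12 mast cell and basophil markers the sums were 1787 to 1879, 2354 to 3023, 1732 to 1814 and 2411 to 2948 CPM, with Gata2 alone at 1826, 2571, 1753 and 2598, 3 of 6 tested higher and 2 lower with ETV6 WT than with ZsGreen, and Prss34 at 0. For 12 T and natural killer cell markers they were 8.81 to 9.53, 24.2 to 25.7, 9.15 to 9.48 and 31.3 to 36.1 CPM, with Gzmb alone at 6.86, 21.2, 4.44 and 31, 2 of 4 tested higher and none lower with ETV6 WT, 7 of the 12 under 1 CPM, and Cd8a, Klrb1c and Ncr1 at 0. Plasmacytoid dendritic cells, known as strong interferon producers, had their markers Siglech, Ly6d and Cd209d at 0, and the 10 listed markers summed to 30.9 to 38.6, 24.8 to 30, 28.5 to 30.3 and 26.9 to 31.7 CPM. Tcf4 alone averaged 34.3, 25.9, 29.3 and 26.8 CPM of this sum, and Clec10a ran otherwise, at 0, 1.32, 0 and 1.76 CPM. Of the 2 tested, 1 was higher and 1 lower with ETV6 WT than with ZsGreen. The part of these shifts in the members' differences was not tested.

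Most of the 38 members tested were at a higher level in cells with ETV6 WT or I209S P214L than in cells with ZsGreen or P214L. For each library, the median over these 38 of the log2 CPM minus the gene's mean over all libraries was -0.36, -0.22 and -0.23 in ZsGreen cells, 0.3, 0.36 and 0.31 in ETV6 WT cells, -0.34, -0.31 and -0.36 in P214L cells, and 0.32, 0.32 and 0.41 in I209S P214L cells. The same median over all genes tested lay between -0.02 and 0.03. The 6 libraries of ETV6 WT and I209S P214L were thus all above the 6 others. Any difference among the 4 groups was called for 33 of the 38 members, against 41% of the 14794 genes tested (edgeR quasi-likelihood test, Benjamini-Hochberg adjusted p under 0.05, as for every call here). The 5 without a call were Gbp3, Irf1, Mx1, Parp14 and Zbp1. In such bulk samples, a level from fewer expressing cells and one from less RNA per cell cannot be told apart.

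**Figure D1:**
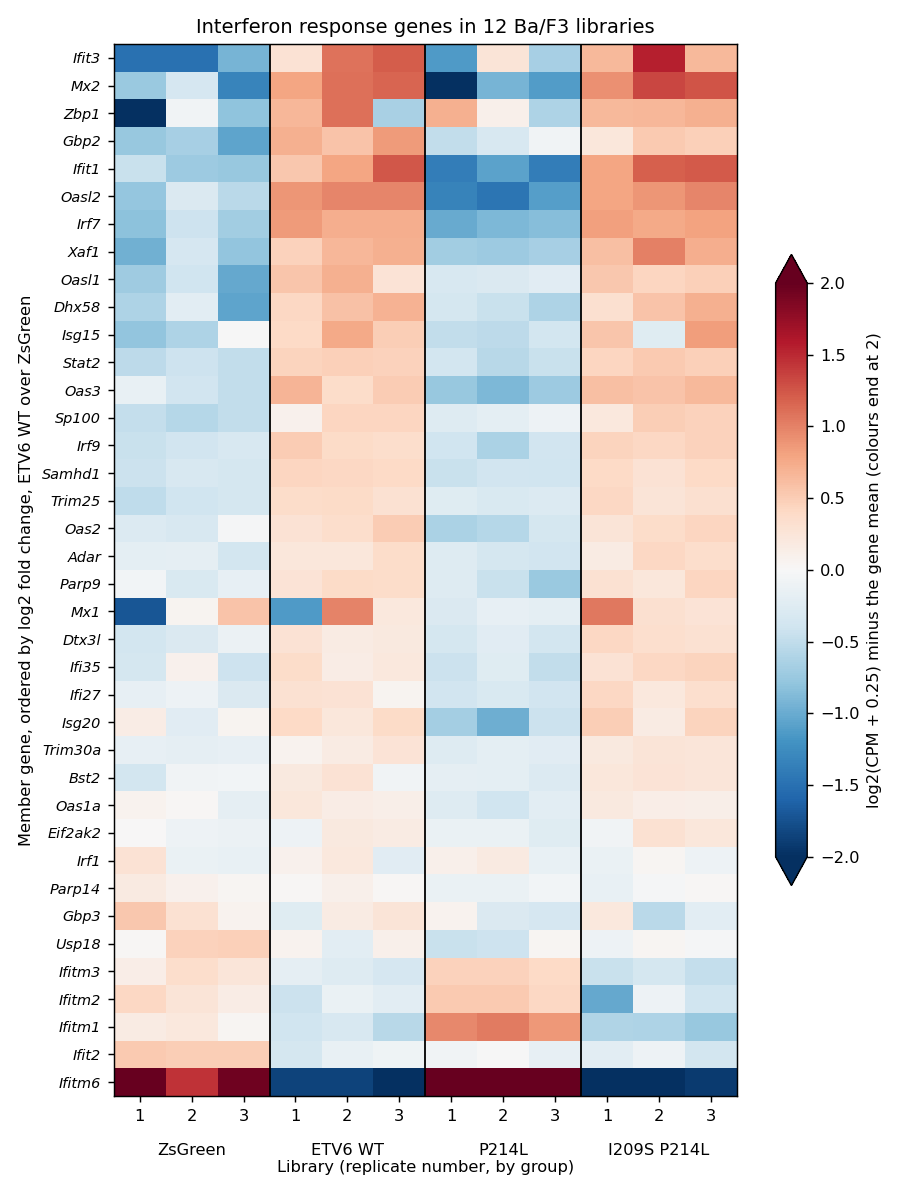
Level of each of the 38 tested members (rows, ordered by their fold change with ETV6 WT over ZsGreen) in each of the 12 libraries (columns, by group), as log2(CPM + 0.25) minus the gene's mean over the libraries, with the colour scale ending at 2 either way. The columns of ETV6 WT and I209S P214L look alike, as do those of ZsGreen and P214L, and the 4 Ifitm rows at the other end run the opposite way.

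One pattern of calls held for 21 of the 38 members. They were higher with ETV6 WT and with I209S P214L than with ZsGreen, lower with P214L than with ETV6 WT, higher with I209S P214L than with P214L, and not called between P214L and ZsGreen or between I209S P214L and ETV6 WT. Oas3 and Oasl2 had the same calls and were in addition lower with P214L than with ZsGreen. The 4 Ifitm genes ran opposite, and Ifit2 was lower with each of the 3 ETV6 forms. How many of all genes tested had the pattern of the 21 was not counted, and shares of all genes are given below for each comparison alone.

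The promoters of these genes are shown first because ISGF3 binds an element known from many interferon response genes, though not all members had a match to it. RefSeq promoter windows (build GRCm38.p6, 250 bases before to 50 after each start) were at hand for 35 of the 45 members. The response element was searched as its core, GAAA followed after 2 free bases by a second GAAA, on either strand, so that it can also read as TTTC, 2 free bases and TTTC. It was found in 17 of the 35 members (48.6%) and in 3.99% of the 27025 genes with a window. The gamma-activated site, through which interferon gamma acts and which was searched as TTCNNNGAA, was in 11 of 35 (31.4%) against 9.55%. A sequence bound by ETS factors, searched only as CCGGAAG on either strand, was in 3 of 35 (8.57%) against 9.93%. Other forms of the ETS site were not searched. Matches to different motifs may share bases and were counted separately. Examples are printed only from members with a match, and 1 of them fell with ETV6 WT while the others rose. They read in the direction of their own transcript, with every match to the response element core in capitals.
Isg15: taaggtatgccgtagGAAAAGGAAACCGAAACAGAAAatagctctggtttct
Ifit1: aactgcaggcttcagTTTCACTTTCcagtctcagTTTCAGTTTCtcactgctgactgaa
Stat2: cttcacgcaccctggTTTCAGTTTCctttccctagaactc
Oas3: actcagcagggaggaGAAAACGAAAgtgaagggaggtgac
Gbp2: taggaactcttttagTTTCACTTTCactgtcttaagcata
Ifitm2: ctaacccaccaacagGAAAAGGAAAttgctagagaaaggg
In GRCm38.p6 these stretches lie at chr4:156200860-156200911 on the minus strand, chr19:34640770-34640828 on the plus strand, chr10:128270261-128270300 on the plus strand, chr5:120777710-120777749 on the minus strand, chr3:142620589-142620628 on the plus strand and chr7:140955983-140956022 on the minus strand. The stretch of Isg15 holds 3 overlapping matches, 78 to 57 bases before its start, and that of Ifit1 holds 2, 104 to 76 bases before. The match lies 222 to 213 bases before the start of Stat2, 75 to 66 before that of Oas3, 59 to 50 before that of Gbp2 and 46 to 37 before that of Ifitm2. By direction, the core was in 8 of the 19 members with a window that rose with ETV6 WT (42.1%), in 2 of the 5 that fell (40%, Ifitm2 and Ifitm3), in 3 of the 5 that were tested and not called (60%, Eif2ak2, Gbp3 and Oas1a) and in 4 of the 6 with too few counts to test (66.7%). Each of these shares rests on few genes. A match is a description of letters, and these data hold no binding measurement.

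Between ETV6 WT and ZsGreen, 24 of the 38 members tested rose and 5 fell. These 29 compare with 37.7% of all genes tested, and by direction with 19.5% higher and 18.2% lower. The median log2 fold change of the 38 was 0.51, against 0.03 for all genes tested. Those that rose took in the ISGF3 factors Stat2 and Irf9, Irf7, most of the RNA sensors, Ifit1 and Ifit3, Mx2, Gbp2, Trim25 and Samhd1, and those that fell were the 4 Ifitm genes and Ifit2. Without ETV6 WT 1 and I209S P214L 1 the counts were 24 and 5, and without ZsGreen 1 they were 21 and 6. With 3 libraries a group, each log2 fold change below is given with its SE, and a value after "rose by" or "fell by" is on the log2 scale.

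Irf7, a factor that switches on interferon genes and is itself induced by interferon (ENSMUSG00000025498, mm39 chr7:140842619-140846394, minus strand), was at 21.2, 28.2 and 23.3 CPM in ZsGreen cells, 68.4, 62.6 and 62.5 in ETV6 WT cells, 18.7, 20.1 and 20.9 in P214L cells, and 67.2, 63.9 and 66.4 in I209S P214L cells. All 3 libraries with ETV6 WT were above every ZsGreen library, and the log2 fold change was 1.42 ± 0.1, adjusted p = 7.51e-09. Stat2, the STAT protein of ISGF3 (mm39 chr10:128106428-128128718), was at 37, 40 and 38 CPM in ZsGreen cells, 72.8, 74.7 and 73.3 in ETV6 WT cells, 41.5, 36.2 and 39 in P214L cells, and 71.8, 77.3 and 74.3 in I209S P214L cells. Its log2 fold change was 0.94 ± 0.08, adjusted p = 4.58e-08, close to a doubling with little spread within either group. Irf9, the DNA-binding part of ISGF3 (mm39 chr14:55841028-55847487), was at 32.2, 33.5 and 34.9 CPM in ZsGreen cells, 62.6, 57.1 and 55.8 in ETV6 WT cells, 33.3, 28.1 and 33.5 in P214L cells, and 59.6, 58.3 and 60.7 in I209S P214L cells. It rose by 0.8 ± 0.09 (adjusted p = 1.71e-06), and the groups did not overlap. Irf1, a factor that answers mostly to interferon gamma, behaved otherwise, at 19.2, 14.2 and 14 CPM in ZsGreen cells, 16.6, 18.1 and 13.3 in ETV6 WT cells, 16.7, 17.7 and 14 in P214L cells, and 14.3, 16.1 and 14.6 in I209S P214L cells. The 4 groups of Irf1 overlapped, and its fold change with ETV6 WT was 0.01 ± 0.16, adjusted p = 0.963. So 3 of the 4 transcription factors rose.

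Among the RNA sensors and the enzymes that act on RNA, 6 of the 9 tested rose and none fell. Oasl2, a relative of the oligoadenylate synthetases, which make the messenger that activates RNase L, was at 14.6, 20.7 and 17.4 CPM in ZsGreen cells, 46.8, 50 and 49.8 in ETV6 WT cells, 9.91, 9.04 and 11.6 in P214L cells, and 43.9, 46.8 and 50.1 in I209S P214L cells. It rose by 1.48 ± 0.13 (adjusted p = 5.33e-08), and its P214L libraries were below all others. Oas3, a synthetase that senses long double-stranded RNA, was at 57.3, 48.5 and 45.1 CPM in ZsGreen cells, 102, 82.1 and 90.7 in ETV6 WT cells, 37.5, 33.8 and 38.4 in P214L cells, and 96, 94.6 and 99.4 in I209S P214L cells. It rose by 0.87 ± 0.1 (adjusted p = 1.5e-06). Oas2, its neighbour on chromosome 5, was at 49.8, 48.2 and 59.2 CPM in ZsGreen cells, 73.6, 76.7 and 86.2 in ETV6 WT cells, 38.8, 40.4 and 47.2 in P214L cells, and 72, 78 and 81.6 in I209S P214L cells. The rise of Oas2 was 0.59 ± 0.1 (adjusted p = 0.00013), with no overlap between these groups. Adar, which edits adenosine in double-stranded RNA, was at 106, 107 and 93.3 CPM in ZsGreen cells, 141, 141 and 157 in ETV6 WT cells, 101, 95.2 and 93 in P214L cells, and 135, 161 and 154 in I209S P214L cells. It rose by 0.52 ± 0.08 (adjusted p = 5.47e-05).

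Dhx58, a helicase related to RIG-I that regulates its signal, averaged 6.19 ± 1.87 CPM in ZsGreen cells, 14.1 ± 1.35 in ETV6 WT cells, 6.76 ± 0.638 in P214L cells and 13.9 ± 1.85 in I209S P214L cells (SD, n = 3), a rise of 1.19 ± 0.2, adjusted p = 0.000129. Oasl1, known to limit translation of Irf7, averaged 4.25 ± 0.98 CPM in ZsGreen cells, 10.2 ± 1.54 in ETV6 WT cells, 5.74 ± 0.203 in P214L cells and 9.92 ± 0.381 in I209S P214L cells, a rise of 1.26 ± 0.21, adjusted p = 8.75e-05. Both thus more than doubled with ETV6 WT. The other 3 tested sensors were not called. Oas1a averaged 43.4 ± 3.85 CPM in ZsGreen cells, 49.7 ± 2 in ETV6 WT cells, 36.2 ± 2.35 in P214L cells and 49 ± 1.45 in I209S P214L cells (0.2 ± 0.09, adjusted p = 0.104). Eif2ak2, the kinase PKR that stops translation on binding double-stranded RNA, averaged 90.7 ± 4.19 CPM in ZsGreen cells, 102 ± 11.3 in ETV6 WT cells, 84.9 ± 3.92 in P214L cells and 107 ± 14.3 in I209S P214L cells, with 0.16 ± 0.1, adjusted p = 0.204. It passed the test without ETV6 WT 1, at 0.25 or 0.26. Zbp1, a sensor of nucleic acids in the Z form, was scarce at 0.536 ± 0.533 CPM in ZsGreen cells, 1.78 ± 1.06 in ETV6 WT cells, 1.3 ± 0.68 in P214L cells and 1.97 ± 0.0485 in I209S P214L cells, with 1.74 ± 0.81, adjusted p = 0.103, and it passed without ZsGreen 2, with a fitted value up to 2.69.

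The IFIT proteins bind viral RNA and hinder its translation, and their genes lie side by side on chromosome 19. Ifit1 was at 4.97, 4.06 and 3.97 CPM in ZsGreen cells, 10.1, 12 and 16.6 in ETV6 WT cells, 2.49, 3.13 and 2.48 in P214L cells, and 12, 16.1 and 16.4 in I209S P214L cells. It rose by 1.57 ± 0.22 (adjusted p = 1.61e-05), and its 3 P214L libraries were the lowest of the 12. Ifit2, given in every library because its direction stood out after its values were seen, was at 28.7, 28 and 28 CPM in ZsGreen cells, 15.5, 17.8 and 18.6 in ETV6 WT cells, 18.8, 19.7 and 17.7 in P214L cells, and 17, 18.5 and 15.3 in I209S P214L cells. It fell by 0.7 ± 0.12 (adjusted p = 0.000113), and all 9 libraries with a form of ETV6 were below the 3 with ZsGreen. Ifit3, a partner of Ifit1, had few counts, 2, 58, 14 and 56 summed over the 3 libraries of ZsGreen, ETV6 WT, P214L and I209S P214L. Both ZsGreen counts came from ZsGreen 3. With ETV6 WT its level was 27.1 times that of ZsGreen (95% counting interval 7.18 to 229), and the gene was called higher (adjusted p = 0.00308). Without ZsGreen 3 the control is at 0 and the call stays, with a fitted value that depends on the prior count.

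Mx2 and Gbp2 belong to families of GTPases that trap virus particles or membranes of microbes. Mx2 was at 2.2, 3 and 1.38 CPM in ZsGreen cells, 6.84, 8.49 and 8.93 in ETV6 WT cells, 0.693, 1.89 and 1.63 in P214L cells, and 7.47, 10.1 and 9.57 in I209S P214L cells. It rose by 1.89 ± 0.32 (adjusted p = 0.000142), with no overlap between ETV6 WT and ZsGreen. Gbp2 averaged 2.6 ± 0.394 CPM in ZsGreen cells, 7.98 ± 0.769 in ETV6 WT cells, 3.87 ± 0.598 in P214L cells and 6.45 ± 0.715 in I209S P214L cells, a rise of 1.62 ± 0.24, adjusted p = 2.96e-05. Their near neighbours did not pass the test. Gbp3 averaged 7.25 ± 1.2 CPM in ZsGreen cells, 6.08 ± 1.11 in ETV6 WT cells, 5.07 ± 0.835 in P214L cells and 5.16 ± 1.39 in I209S P214L cells (-0.25 ± 0.25, adjusted p = 0.462). Mx1 had under 1 CPM on average in each group, at 0.521 ± 0.486 CPM in ZsGreen cells, 0.727 ± 0.624 in ETV6 WT cells, 0.449 ± 0.0294 in P214L cells and 0.985 ± 0.404 in I209S P214L cells (0.49 ± 0.94, adjusted p = 0.727).

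ISG15 is a ubiquitin-like protein that is attached to other proteins, Trim25 is a ligase that modifies RIG-I, and Usp18 removes ISG15 and also blocks the receptor. Trim25 was at 131, 142 and 147 CPM in ZsGreen cells, 240.1, 244 and 231 in ETV6 WT cells, 158, 151 and 155 in P214L cells, and 249.8, 224 and 233 in I209S P214L cells. It rose by 0.77 ± 0.07 (adjusted p = 5.11e-08). Isg15 itself was low, at 2.68 ± 0.871 CPM in ZsGreen cells, 5.57 ± 0.779 in ETV6 WT cells, 2.62 ± 0.172 in P214L cells and 5.12 ± 1.88 in I209S P214L cells, and rose by 1.05 ± 0.32 (adjusted p = 0.0148). That call was lost without ZsGreen 1 or without ETV6 WT 2, at 0.87 and 0.94. Usp18 averaged 23.5 ± 3.95 CPM in ZsGreen cells, 18.5 ± 2.15 in ETV6 WT cells, 15.5 ± 3.08 in P214L cells and 18.1 ± 0.898 in I209S P214L cells and was not called (-0.34 ± 0.16, adjusted p = 0.0929), although without ZsGreen 1 it was called lower, at -0.50. Thus 2 of the 3 genes of the ISG15 pathway rose.

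Dtx3l and Parp9 encode a ubiquitin ligase and its partner, lie head to head on chromosome 16 and overlap by 682 bases on opposite strands. Dtx3l was at 37.8, 40 and 45 CPM in ZsGreen cells, 59.9, 54.8 and 56.4 in ETV6 WT cells, 38.3, 41.9 and 38.1 in P214L cells, and 65.5, 61.9 and 60.8 in I209S P214L cells. It rose by 0.48 ± 0.09 (adjusted p = 0.000293). Parp9 averaged 26 ± 2.29 CPM in ZsGreen cells, 37.1 ± 1.54 in ETV6 WT cells, 21 ± 3.44 in P214L cells and 36.6 ± 2.55 in I209S P214L cells and rose by 0.51 ± 0.12 (adjusted p = 0.00236). Parp14, a related ADP-ribosyltransferase 55 kb from Dtx3l, averaged 33.3 ± 1.61 CPM in ZsGreen cells, 32 ± 1.01 in ETV6 WT cells, 28.7 ± 0.994 in P214L cells and 30 ± 1.91 in I209S P214L cells and was not called (-0.06 ± 0.1, adjusted p = 0.691). The levels of Dtx3l and Parp9 are uncertain where they overlap, since it is not known whether strand was kept.

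Of the factors that restrict viruses directly, 3 of the 4 tested rose. Samhd1, which breaks down the nucleotides that reverse transcription needs, was at 119, 128 and 126 CPM in ZsGreen cells, 216, 215 and 212 in ETV6 WT cells, 118, 123 and 122 in P214L cells, and 212, 197 and 212 in I209S P214L cells. It rose by 0.79 ± 0.06 (adjusted p = 1.59e-08), and the values within each group were close. Trim30a, a member of a mouse TRIM family with near copies, averaged 72.9 ± 0.415 CPM in ZsGreen cells, 92.2 ± 6.37 in ETV6 WT cells, 69.7 ± 1.56 in P214L cells and 96.1 ± 2.41 in I209S P214L cells, a rise of 0.34 ± 0.07, adjusted p = 0.000717. Bst2, or tetherin, which holds budding virus at the membrane, averaged 65 ± 7.55 CPM in ZsGreen cells, 80 ± 10 in ETV6 WT cells, 62.3 ± 1.91 in P214L cells and 85.9 ± 1.35 in I209S P214L cells, a rise of 0.3 ± 0.1, adjusted p = 0.019, with overlapping libraries. Its call was lost without ZsGreen 1, at 0.19, without ETV6 WT 2, at 0.22, without both ETV6 WT 1 and I209S P214L 1, at 0.27, and with only these groups in the fit, at 0.28. Isg20, an exonuclease that degrades RNA, averaged 8.07 ± 1.09 CPM in ZsGreen cells, 10.3 ± 0.699 in ETV6 WT cells, 4.92 ± 0.963 in P214L cells and 10.5 ± 1.26 in I209S P214L cells and was not called (0.35 ± 0.19, adjusted p = 0.17).

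The 4 tested genes of the remaining class all rose. Xaf1, which antagonises an inhibitor of cell death, was at 8.07, 12.5 and 9.14 CPM in ZsGreen cells, 22.1, 25.4 and 26.3 in ETV6 WT cells, 9.7, 9.51 and 10 in P214L cells, and 24.2, 32.1 and 26.5 in I209S P214L cells. Sp100, a protein of nuclear bodies, was at 59.7, 56.3 and 59.4 CPM in ZsGreen cells, 88.5, 113 and 112 in ETV6 WT cells, 69.6, 73.3 and 77.7 in P214L cells, and 96.6, 117 and 115 in I209S P214L cells. Ifi27, a small membrane protein, was at 159, 167 and 146 CPM in ZsGreen cells, 222, 219.8 and 187 in ETV6 WT cells, 137, 145 and 137 in P214L cells, and 239, 208 and 227 in I209S P214L cells. In all of these the ETV6 WT libraries were above every ZsGreen library, with rises of 1.32 ± 0.16 (adjusted p = 3.21e-06), 0.84 ± 0.1 (1.97e-06) and 0.41 ± 0.08 (0.000416). Ifi35 averaged 19.8 ± 3.96 CPM in ZsGreen cells, 27.1 ± 2.15 in ETV6 WT cells, 17.5 ± 1.69 in P214L cells and 29.9 ± 1.71 in I209S P214L cells, a rise of 0.46 ± 0.14, adjusted p = 0.012, which was lost without ZsGreen 1 or without ZsGreen 3, at 0.37 and 0.35.

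The Ifitm proteins sit in membranes and block the entry of enveloped viruses, and their 4 listed genes lie in 1 cluster on chromosome 7 between mm39 positions 140534750 and 140597837, 244.8 kb before Irf7. All 4 fell with ETV6 WT, opposite to Irf7 nearby. Ifitm1 was at 514, 534 and 469.6 CPM in ZsGreen cells, 349, 366 and 313 in ETV6 WT cells, 890, 940.4 and 839 in P214L cells, and 302, 298 and 272 in I209S P214L cells. It fell by 0.56 ± 0.07 (adjusted p = 8.27e-06), and its P214L libraries were the highest of the 12. Ifitm3, the member best known for blocking influenza virus, was at 176, 207 and 190.4 CPM in ZsGreen cells, 142, 135 and 128 in ETV6 WT cells, 223, 221 and 213 in P214L cells, and 118, 127 and 116 in I209S P214L cells. It fell by 0.5 ± 0.07 (adjusted p = 2.13e-05). Ifitm2 averaged 143 ± 13.2 CPM in ZsGreen cells, 98.9 ± 10.2 in ETV6 WT cells, 165 ± 6.98 in P214L cells and 85.9 ± 26.3 in I209S P214L cells and fell by 0.53 ± 0.15 (adjusted p = 0.00909). Ifitm6, a family member found in mice, fell the furthest, at 18.6, 11.7 and 16.8 CPM in ZsGreen cells, 0.977, 0.969 and 0.585 in ETV6 WT cells, 29.3, 25.4 and 23.3 in P214L cells, and 0.322, 0.697 and 0.921 in I209S P214L cells. Its 6 libraries with ETV6 WT or I209S P214L were all under 1 CPM, 18.6-fold lower with ETV6 WT than with ZsGreen (-4.22 ± 0.28, adjusted p = 2.24e-09). Per length, Ifitm1 had the highest level of all 45 members in every group. Its mean FPKM (counts scaled to gene length and library size) was 459.8 ± 30.3 in ZsGreen cells, 309.6 ± 24.2 in ETV6 WT cells, 804 ± 45.8 in P214L cells and 265 ± 14.7 in I209S P214L cells (SD, n = 3). With ZsGreen the next were Ifitm3 at 280.4 ± 22.1, Ifitm2 at 217 ± 20.4 and Ifi27 at 107 ± 7.03 FPKM.

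**Figure D2:**
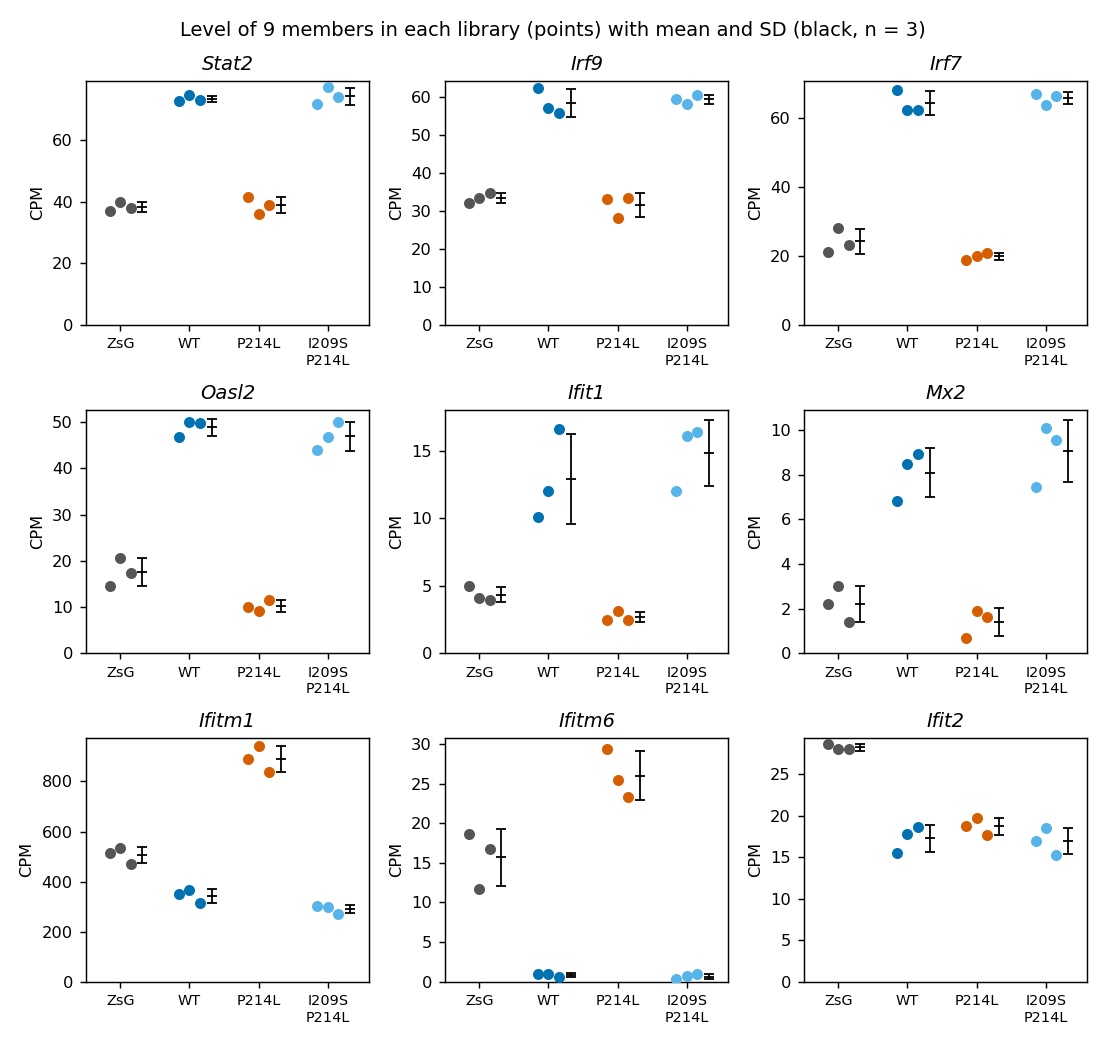
CPM in each library (points) with the mean and SD of the 3 libraries (bar and whisker) for 9 members, 1 panel each, with the 4 groups along the x axis and a y axis that starts at 0. Stat2, Irf9, Irf7, Oasl2, Ifit1 and Mx2 are high with ETV6 WT and I209S P214L, Ifitm1 and Ifitm6 are low there and highest with P214L, and Ifit2 is low with all 3 forms of ETV6.

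With P214L compared with ZsGreen, 1 of the 38 rose and 5 fell, and the median log2 fold change was -0.07, against 0.01 for all genes tested. The 6 calls compare with 5.08% of all genes tested, the 1 rise with 3.47% and the 5 falls with 1.61%. At an unadjusted p under 0.05 there were 19 of the 38 members, against 17.9% of all genes tested, and the libraries did not overlap for 21, against 25.7%. Without ETV6 WT 1 and I209S P214L 1 the calls were 3 higher and 5 lower, and without ZsGreen 1 they were 1 and 3. Ifitm1 rose by 0.81 ± 0.07 (adjusted p = 2.67e-06), and the falls were Oasl2 (-0.79 ± 0.14, adjusted p = 0.00156), Ifit2 (-0.59 ± 0.12, adjusted p = 0.00523), Oas3 (-0.46 ± 0.1, adjusted p = 0.0104), Isg20 (-0.72 ± 0.2, adjusted p = 0.0438) and Usp18 (-0.6 ± 0.16, adjusted p = 0.034). The calls of Ifitm1, Oasl2 and Ifit2 held under all 20 alternatives. That of Oas3 was lost without ZsGreen 1 or P214L 2, at -0.36 and -0.41. That of Usp18 was lost without ZsGreen 2, ZsGreen 3, P214L 1 or P214L 2, at -0.54 to -0.52, and its libraries overlapped. That of Isg20 was lost in 10 alternatives, at -0.74 to -0.59, among them without ZsGreen 1, ZsGreen 3, ETV6 WT 2, ETV6 WT 3, P214L 1, P214L 2 or I209S P214L 3. Leaving out 1 library gave 3 to 8 calls, with the fewest without P214L 2, and 4 each without ZsGreen 1, ZsGreen 3 or P214L 1.

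Several members lay close to the threshold in this comparison. Ifit1 had all 3 P214L libraries below all ZsGreen libraries and was not called (-0.68 ± 0.24, adjusted p = 0.12). Ifitm6 was higher in all 3 P214L libraries and was not called (0.72 ± 0.21, adjusted p = 0.055), though it passed in 10 of the 20 alternatives, among them DESeq2 and limma-voom. Sp100 was likewise above ZsGreen in all 3 libraries (0.33 ± 0.1, adjusted p = 0.0584) and passed in 7 alternatives. The factors Irf7 (-0.28 ± 0.11, adjusted p = 0.157), Stat2 (0.02 ± 0.08, adjusted p = 0.933) and Irf9 (-0.08 ± 0.09, adjusted p = 0.702) were not called. The 95% interval of Stat2 was -0.15 to 0.19 and thus lay below the value seen with ETV6 WT.

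I209S P214L against ZsGreen gave the same numbers of calls as ETV6 WT did. Again 24 of the 38 members rose and 5 fell, with a median log2 fold change of 0.61 against 0.03 for all genes tested. The 29 calls compare with 41.5% of all genes tested, 20.8% higher and 20.7% lower. Both comparisons use the same ZsGreen libraries, so their values are given side by side and are not independent. Irf7 was 1.45 with I209S P214L and 1.42 with ETV6 WT, Stat2 0.96 and 0.94, Irf9 0.83 and 0.8, Oasl2 1.42 and 1.48, and Mx2 2.04 and 1.89. Of the members that fell, Ifitm1 was -0.8 and -0.56, Ifitm6 -4.62 and -4.22, and Ifit2 -0.74 and -0.7. Ifit3 was 28.1 times its ZsGreen level (95% counting interval 7.41 to 237). Isg15 was called at 0.94 ± 0.32, adjusted p = 0.027, and the call was lost without ZsGreen 1, ZsGreen 2, I209S P214L 1 or I209S P214L 3, without both I209S P214L 1 and ETV6 WT 1, and with only these groups in the fit, at 0.68 to 0.93. Without ZsGreen 1 the counts were 23 and 6. Without ETV6 WT 1 and I209S P214L 1 they were 24 and 6, Gbp3 being called lower at -0.72 when I209S P214L 1 was left out.

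P214L and ETV6 WT differed in most members. Of the 38, 4 were higher with P214L and 25 lower, with a median log2 fold change of -0.63 against 0.00 for all genes tested. The 29 calls compare with 29.2% of all genes tested, and each direction with 14.6%. Without ETV6 WT 1 and I209S P214L 1, 4 were higher and 26 lower. The largest falls by size among members above 1 CPM in both groups were Mx2, 5.68-fold lower (-2.51 ± 0.34, adjusted p = 1.83e-05), Oasl2, 4.81-fold lower (-2.27 ± 0.13, adjusted p = 5.55e-10), and Ifit1, 4.76-fold lower (-2.25 ± 0.23, adjusted p = 6.94e-07). All 3 tested factors other than Irf1 were lower, Irf7 by 1.7 ± 0.11, Stat2 by 0.92 ± 0.08 and Irf9 by 0.89 ± 0.09 (adjusted p = 1.21e-09, 8.88e-08 and 8.45e-07). The 4 that were higher were Ifitm6 (30.8-fold, 4.94 ± 0.28, adjusted p = 3.48e-10), Ifitm1 (1.38 ± 0.07, adjusted p = 2.07e-10), Ifitm2 (0.74 ± 0.15, adjusted p = 0.00104) and Ifitm3 (0.7 ± 0.07, adjusted p = 7.61e-07).

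Among the RNA sensors, 7 of the 9 tested were lower with P214L than with ETV6 WT, 1 more than had risen with ETV6 WT over ZsGreen. The added gene was Oas1a (-0.46 ± 0.09, adjusted p = 0.000944), whose mean with ZsGreen lay between those of the other 2 groups. All 4 tested restriction factors were lower, Isg20 among them (-1.06 ± 0.2, adjusted p = 0.000452). Bst2 was lower by 0.36 ± 0.1 (adjusted p = 0.00811), a call lost without ETV6 WT 2, at -0.28. Isg15 was lower by 1.09 ± 0.32 (adjusted p = 0.0165), a call lost without ETV6 WT 2, P214L 1 or P214L 2, at -1.06 to -0.97. Eif2ak2 was not called (-0.26 ± 0.1, adjusted p = 0.0541) and passed in 6 alternatives, at -0.35 to -0.25. These were without ETV6 WT 1, without I209S P214L 1, without both, with no filter on low counts, with the replicate number as a block, and with only these groups in the fit. Ifit2 was not called (0.11 ± 0.12, adjusted p = 0.552), with an interval of -0.14 to 0.36.

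No member was called between I209S P214L and ETV6 WT. The background is as thin, with 0.0338% of all genes tested called, 0.0135% higher and 0.0203% lower, and neither DESeq2 nor limma-voom called a member. Without ETV6 WT 1 and I209S P214L 1 the counts were again 0 and 0. At an unadjusted p under 0.05 there were 2 members, Ifitm1 and Ifitm3, against 3.46% of all genes tested. For 29 of the 38 members the 95% interval of the log2 fold change lay within 1.5-fold either way. Irf7 differed by 0.03 (interval -0.18 to 0.24), Stat2 by 0.02 (-0.15 to 0.18), Irf9 by 0.03 (-0.16 to 0.21) and Samhd1 by -0.05 (-0.18 to 0.08), so these intervals leave room for small differences only. Scarce genes were less well bounded, with limits down to -1.55 for Ifit3 and up to 2.36 for Mx1.

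The libraries of I209S P214L and ETV6 WT did not overlap for 4 of the 38 members, against 8.33% of all genes tested. Dtx3l was higher in all 3 I209S P214L libraries (0.14 ± 0.09, adjusted p = 1), and Gbp2 (-0.31 ± 0.22, adjusted p = 1), Ifitm1 (-0.24 ± 0.07, adjusted p = 0.86) and Ifitm3 (-0.17 ± 0.07, adjusted p = 1) were lower in all 3. For Ifitm1 the interval was -0.39 to -0.08 and for Ifitm3 -0.32 to -0.02. Both lay in the direction in which ETV6 WT differs from ZsGreen, as did the point values of Ifitm2 (-0.21) and Ifitm6 (-0.4), and none passed the adjusted threshold.

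**Figure D3:**
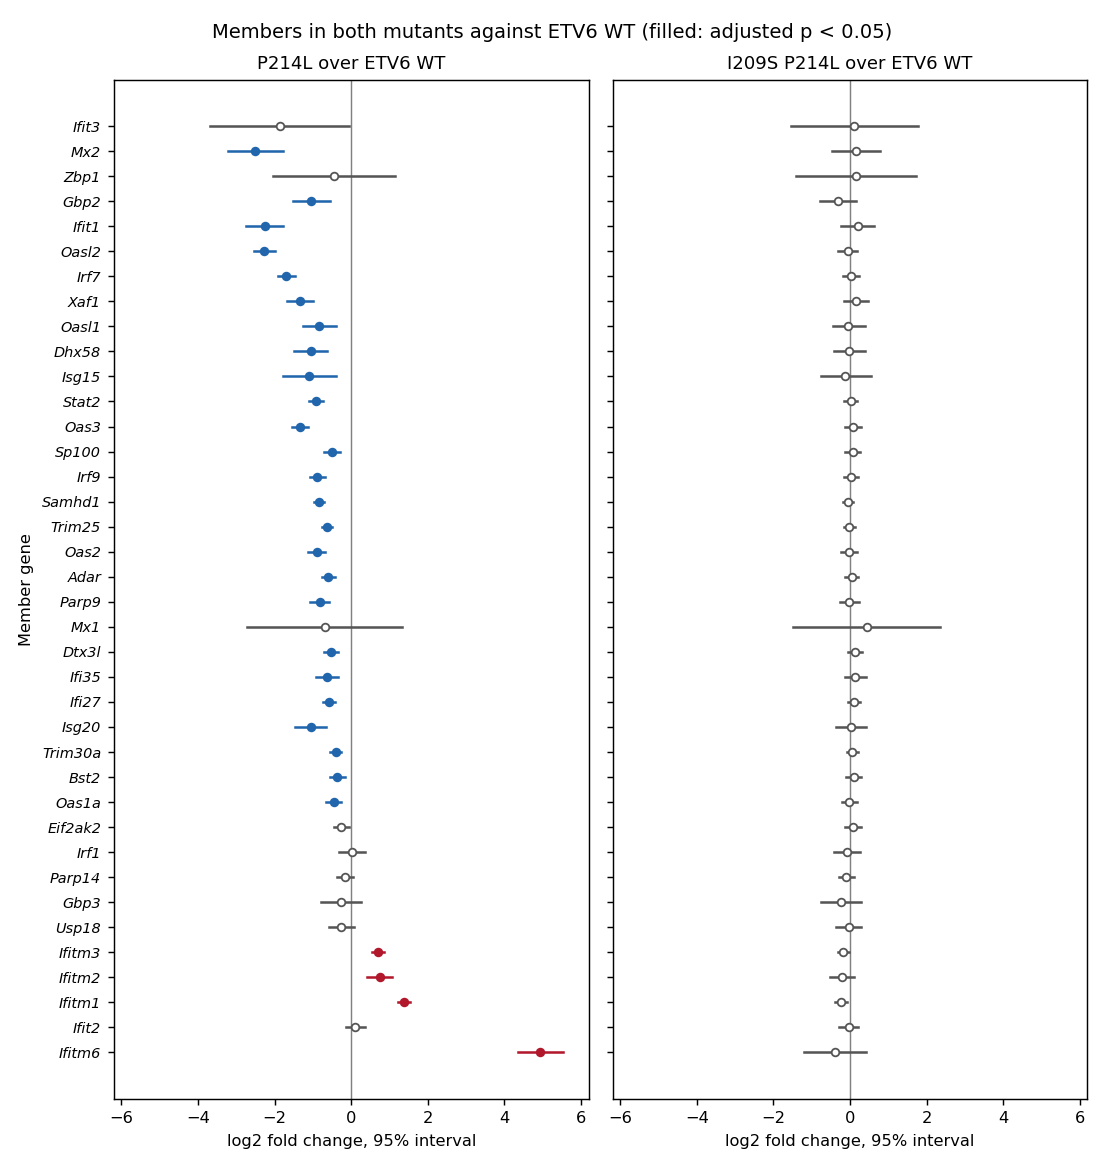
Log2 fold change against ETV6 WT (x axis) of each of the 38 tested members (rows) for P214L and for I209S P214L, with 95% intervals, and filled points where the gene was called. For P214L 25 points lie to the left of 0 and 4 to the right with a call, and for I209S P214L no point is filled.

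Cells with I209S P214L had higher levels of most members than cells with P214L. Of the 38 tested, 26 were higher and 4, the Ifitm genes, lower, with a median log2 fold change of 0.71 against 0.00 for all genes tested. The 30 calls compare with 33% of all genes tested, 15.9% higher and 17.1% lower. Without ETV6 WT 1 and I209S P214L 1, 25 were higher and 4 lower. Irf7 rose by 1.73 ± 0.11 (adjusted p = 7.79e-10), Stat2 by 0.94 ± 0.08 (5.56e-08), Irf9 by 0.91 ± 0.09 (4.87e-07) and Mx2 by 2.66 ± 0.34 (7.3e-06). Ifitm1 fell by 1.61 ± 0.08 (adjusted p = 2.22e-11), and Ifitm6 was 40.5-fold lower (-5.34 ± 0.29, adjusted p = 1.9e-10). Among the RNA sensors, 8 of the 9 tested were higher, the exception being Zbp1 (0.6 ± 0.76, adjusted p = 0.613). Eif2ak2 was called here (0.33 ± 0.1, adjusted p = 0.0135) and lost the call without P214L 3, I209S P214L 2 or I209S P214L 3, at 0.25 to 0.29. Gbp2 (0.73 ± 0.23, adjusted p = 0.0205) lost it without P214L 1, P214L 2, I209S P214L 2 or I209S P214L 3, at 0.63 to 0.73. Isg15 (0.97 ± 0.33, adjusted p = 0.0283) lost it without P214L 1, P214L 2, P214L 3, I209S P214L 1 or I209S P214L 3, without both I209S P214L 1 and ETV6 WT 1, and under limma-voom, at 0.72 to 1.02.

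The comparison of ETV6 WT with ZsGreen shares no library with that of I209S P214L with P214L. Over the 38 members their log2 fold changes had a Pearson r of 0.866, and 34 (89.5%) had the same sign. Ifitm6, at -4.22 and -5.34, lies far from the other members and weighs on this r, which was not computed without it. Over all 14794 genes tested, r was 0.701 and 79.5% had the same sign. These are descriptions across genes, which are not independent replicates. Ifit2, singled out after its values were seen, was called in the first of these (-0.7 ± 0.12, adjusted p = 0.000113) and not in the second (-0.14 ± 0.12, adjusted p = 0.404), and the difference between them was not tested.

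**Figure D4:**
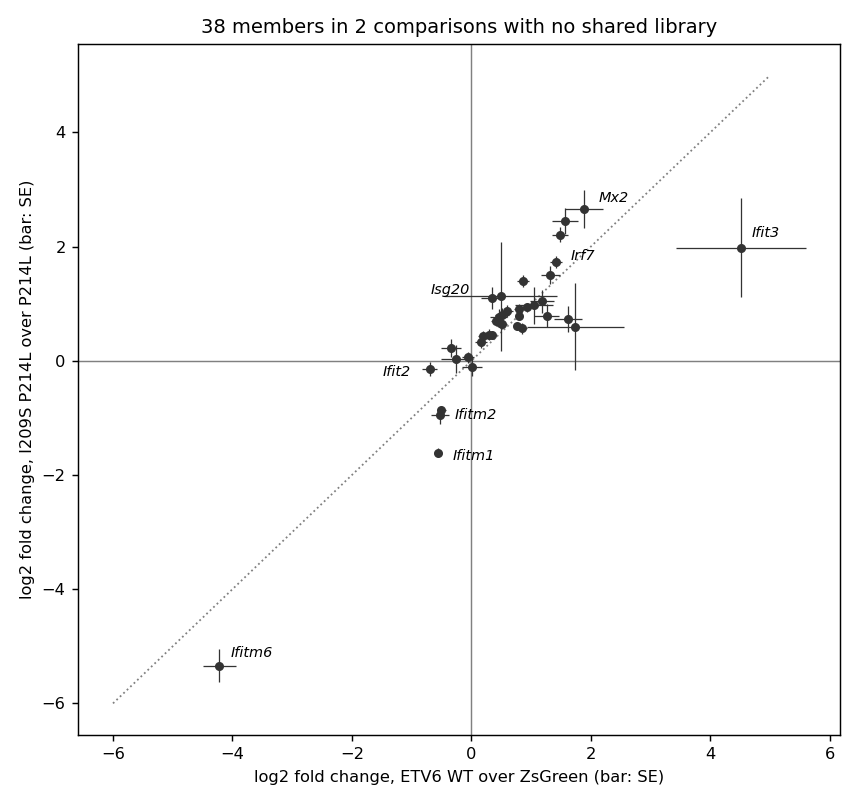
Log2 fold change of ETV6 WT over ZsGreen (x axis) against that of I209S P214L over P214L (y axis) for the 38 tested members, with SE bars and a dotted line where both are equal. Most points lie near the line, Ifitm6 lies far down at the left, and Oasl2, Ifit1 and Mx2 lie above the line. Ifit3, a gene with few counts, lies far below the line at 4.51 and 1.98, and Zbp1 and Gbp2 also lie below it.

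The 7 members with under 120 counts had too few reads for a test. Over the 3 libraries of ZsGreen, ETV6 WT, P214L and I209S P214L, Ifi44 had 2, 6, 2 and 3 counts, Rsad2 (viperin, which makes a chain-terminating nucleotide) had 0, 5, 0 and 4, and Rtp4 had 0, 3, 2 and 6. Ddx60, a helicase, had 2 counts in all, both in ETV6 WT 1. Cmpk2, a mitochondrial nucleotide kinase next to Rsad2, and Ifih1, the RNA sensor MDA5, had no count in any library. A count of 0 over a group of 3 libraries allows a level of up to 0.0568 to 0.0642 CPM. Rsad2 was counted in ETV6 WT 1 and 2 (1 and 4 counts) and in I209S P214L 1 and 2 (1 and 3), and the third library of each group had none. Of the 6 counts of Rtp4 with I209S P214L, 5 came from I209S P214L 3. No fold is given for these genes, since their counts came from 1 or 2 libraries of a group. Ifit3b, a near copy of Ifit3, had 10, 7, 0 and 1 counts, with all 10 of its ZsGreen counts in ZsGreen 3, so its order over the groups was not that of Ifit3. Reads of such copies may be split or dropped in counting, and the same holds for the Ifitm, Oas, Mx, Gbp and Trim30 genes.

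The rest of the pathway was read from lists of the ligands, receptors, inhibitors, sensors and further targets. Their counts read against 19.5% of all genes tested higher and 18.2% lower with ETV6 WT over ZsGreen, and 5.08% called with P214L over ZsGreen. None of 21 interferon genes had enough reads to test, and 3 were detected at all. Ifne had 0, 11, 3 and 11 counts over the 3 libraries of ZsGreen, ETV6 WT, P214L and I209S P214L, Ifnz had 1, 4, 0 and 2, and Ifnab had 14, 2, 3 and 0. Ifnb1, the listed Ifna genes and Ifng had no count in any library.

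Of 11 receptor, kinase and STAT genes, 10 were tested, and 8 rose and 1 fell with ETV6 WT over ZsGreen (median log2 fold change 0.46). Ifnar1, a chain of the type I interferon receptor, averaged 54.3 ± 4.05 CPM in ZsGreen cells, 80.5 ± 5.5 in ETV6 WT cells, 62.9 ± 2.06 in P214L cells and 79.5 ± 5.84 in I209S P214L cells (0.57 ± 0.08, adjusted p = 2.9e-05). Ifnar2, its other chain, averaged 61.4 ± 7.96 CPM in ZsGreen cells, 88.3 ± 6.18 in ETV6 WT cells, 60.4 ± 2.22 in P214L cells and 77.8 ± 3.97 in I209S P214L cells (0.52 ± 0.09, adjusted p = 0.000151). Il10rb, a chain of the interferon lambda and interleukin-10 receptors, averaged 12.4 ± 1.41 CPM in ZsGreen cells, 30.4 ± 2.05 in ETV6 WT cells, 19.5 ± 1.9 in P214L cells and 30.9 ± 1.33 in I209S P214L cells and rose with ETV6 WT (1.29 ± 0.12, adjusted p = 1.67e-07) and with P214L (0.65 ± 0.12, adjusted p = 0.00366). With P214L 2 of the 10 were called higher, and 1 without ZsGreen 2, ZsGreen 3, P214L 1 or P214L 3.

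Among the inhibitors of the pathway, some rose and the rest were not called. Of 13 tested, 6 rose and none fell with ETV6 WT (median 0.25). Socs1, which blocks the receptor kinases, averaged 5.28 ± 0.964 CPM in ZsGreen cells, 4.77 ± 1.36 in ETV6 WT cells, 5.23 ± 1.3 in P214L cells and 4.79 ± 1.97 in I209S P214L cells and was not called (-0.15 ± 0.32, adjusted p = 0.762). Socs3, its relative, averaged 5.34 ± 3.17 CPM in ZsGreen cells, 12.4 ± 1.97 in ETV6 WT cells, 4.14 ± 1.58 in P214L cells and 11.5 ± 1.25 in I209S P214L cells (1.23 ± 0.36, adjusted p = 0.0108), and Nlrc5, which can restrain interferon signalling and drives class I antigen genes, averaged 20.4 ± 3.4 CPM in ZsGreen cells, 35.1 ± 1.62 in ETV6 WT cells, 20.1 ± 2.31 in P214L cells and 39.4 ± 5.28 in I209S P214L cells (0.78 ± 0.14, adjusted p = 0.000167). Irf2, a factor that competes with other Irf proteins, averaged 38.7 ± 2.66 CPM in ZsGreen cells, 53.2 ± 4.32 in ETV6 WT cells, 42.6 ± 1.91 in P214L cells and 55.1 ± 1.67 in I209S P214L cells (0.46 ± 0.09, adjusted p = 0.000484). With P214L 1 of the 13 was called, near the background, and 0 to 2 under the alternatives.

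Of 17 tested sensors, adaptors and kinases that lead to interferon production, 8 rose and 3 fell with ETV6 WT, with a median near that of all genes (0.08 against 0.03). The RNA sensor RIG-I (Ddx58) averaged 50.1 ± 5.06 CPM in ZsGreen cells, 104 ± 11.6 in ETV6 WT cells, 41.6 ± 2.18 in P214L cells and 103 ± 8.55 in I209S P214L cells (1.06 ± 0.1, adjusted p = 1.12e-07), in contrast to the absence of reads of Ifih1. Ticam1, the adaptor of Toll-like receptor 3, averaged 21.4 ± 3.66 CPM in ZsGreen cells, 41 ± 7.74 in ETV6 WT cells, 23.6 ± 0.455 in P214L cells and 40.5 ± 1.9 in I209S P214L cells (0.94 ± 0.14, adjusted p = 2.52e-05), and Unc93b1, which brings Toll-like receptors to endosomes, averaged 42.7 ± 3.01 CPM in ZsGreen cells, 70.3 ± 6.73 in ETV6 WT cells, 45.9 ± 0.591 in P214L cells and 67.1 ± 3.76 in I209S P214L cells (0.72 ± 0.09, adjusted p = 4.31e-06). With P214L 1 of the 17 was called, near the background, and 0 in 14 of the alternatives.

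Of the other interferon regulatory factors, 3 of the 4 tested rose with ETV6 WT, Irf2 again among them. Irf3, the factor that acts first after RNA sensing, averaged 66.2 ± 4.32 CPM in ZsGreen cells, 85.9 ± 9.93 in ETV6 WT cells, 66.9 ± 3.62 in P214L cells and 91.1 ± 4.74 in I209S P214L cells (0.38 ± 0.09, adjusted p = 0.00223), and Irf5, a factor downstream of Toll-like receptors, averaged 16 ± 0.662 CPM in ZsGreen cells, 22.4 ± 3.98 in ETV6 WT cells, 17.3 ± 2.77 in P214L cells and 21.3 ± 3.02 in I209S P214L cells (0.49 ± 0.16, adjusted p = 0.0186), a call lost without ZsGreen 2, ETV6 WT 1 or ETV6 WT 2, and without both ETV6 WT 1 and I209S P214L 1, at 0.38 to 0.45. Irf8, a factor of myeloid and B cells, was too scarce to test, with 31, 2, 14 and 3 counts over the 4 groups in the order above. Most of its reads thus came from ZsGreen and P214L libraries, where Irf7 was low.

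Further interferon-stimulated genes were listed outside the 45. Of 55 tested, 29 rose and 8 fell with ETV6 WT (median 0.34), and 3 rose and 1 fell with P214L against ZsGreen. With P214L 5 were higher and 26 lower than with ETV6 WT, against 14.6% of all genes tested in each direction. None was called between I209S P214L and ETV6 WT, where only 0.0338% of all genes tested were called, so this is near the background. Uba7, the enzyme that activates ISG15, averaged 75.2 ± 18.1 CPM in ZsGreen cells, 196 ± 12 in ETV6 WT cells, 75.3 ± 1.19 in P214L cells and 188 ± 1.93 in I209S P214L cells (1.38 ± 0.12, adjusted p = 6.33e-08). Slfn5, a schlafen family member, averaged 25.6 ± 1.35 CPM in ZsGreen cells, 72.4 ± 12.1 in ETV6 WT cells, 32.9 ± 4.95 in P214L cells and 70.2 ± 10.9 in I209S P214L cells (1.5 ± 0.14, adjusted p = 1.59e-07). Its relative Slfn4 ran opposite, at 147 ± 3.53 CPM in ZsGreen cells, 110.2 ± 9.26 in ETV6 WT cells, 205 ± 9.27 in P214L cells and 111 ± 2.32 in I209S P214L cells, lower with ETV6 WT (-0.42 ± 0.07, adjusted p = 0.000106) and higher with P214L (0.48 ± 0.07, adjusted p = 0.000312). Of 11 tested guanylate-binding proteins and immunity-related GTPases, 7 rose and 1 fell with ETV6 WT (median 0.82). Gbp9 averaged 14.7 ± 2.23 CPM in ZsGreen cells, 59.1 ± 2.77 in ETV6 WT cells, 12.4 ± 1.26 in P214L cells and 62.1 ± 6.95 in I209S P214L cells (2.01 ± 0.12, adjusted p = 8.93e-10), Irgm1, a regulator of this family, averaged 62.7 ± 3.37 CPM in ZsGreen cells, 86.1 ± 2.89 in ETV6 WT cells, 51.3 ± 0.567 in P214L cells and 93.2 ± 4.55 in I209S P214L cells (0.46 ± 0.07, adjusted p = 5.74e-05), and the one that fell was Ifi47, at 32.5 ± 4.19 CPM in ZsGreen cells, 13.7 ± 1.43 in ETV6 WT cells, 29 ± 1.45 in P214L cells and 11.4 ± 2.88 in I209S P214L cells (-1.25 ± 0.16, adjusted p = 4.87e-06). With P214L, Irgm1 was the 1 call (-0.29 ± 0.07, adjusted p = 0.0269), lost without ZsGreen 2, ZsGreen 3, P214L 1, P214L 2 or P214L 3, at -0.30 to -0.27. Ifi207, the 1 tested gene of the Ifi200 family of DNA sensors, had 0, 63, 16 and 64 counts over the 4 groups in the order above.

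Of 12 targets that interferon gamma favours, 3 could be tested, and 1 fell with ETV6 WT and none was called higher. Cd274, the checkpoint ligand PD-L1, averaged 61.3 ± 3.28 CPM in ZsGreen cells, 21 ± 1.92 in ETV6 WT cells, 42.8 ± 2.22 in P214L cells and 18.2 ± 1.9 in I209S P214L cells, lower with ETV6 WT (-1.55 ± 0.11, adjusted p = 3.76e-09) and with P214L (-0.52 ± 0.1, adjusted p = 0.00523) than with ZsGreen. Cd74 (-1.4 ± 0.73, adjusted p = 0.143) and Fcgr1 (-1.14 ± 0.63, adjusted p = 0.175) were not called with ETV6 WT. Of 6 secreted factors induced by interferon or NF-kB, Il15, a growth factor of natural killer cells, rose at 25 ± 1.44 CPM in ZsGreen cells, 51.8 ± 2.5 in ETV6 WT cells, 29.4 ± 2.5 in P214L cells and 51.2 ± 9.13 in I209S P214L cells (1.05 ± 0.12, adjusted p = 1.53e-06), and Tnf fell at 11.3 ± 1.35 CPM in ZsGreen cells, 5.25 ± 0.788 in ETV6 WT cells, 10.5 ± 1.62 in P214L cells and 4.72 ± 0.557 in I209S P214L cells (-1.11 ± 0.2, adjusted p = 0.000236). The chemokine Ccl3 averaged 6.32 ± 0.766 CPM in ZsGreen cells, 5.48 ± 1.18 in ETV6 WT cells, 14.8 ± 3.95 in P214L cells and 4.74 ± 1.27 in I209S P214L cells and rose with P214L (1.22 ± 0.24, adjusted p = 0.00516), a call lost without P214L 1, at 0.99. Of 2 tested Ifitm relatives outside the 45, Ifitm5 (-0.19 ± 0.97, adjusted p = 0.9) and Tmem91 (-0.68 ± 0.33, adjusted p = 0.111) were not called.

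**Figure D5:**
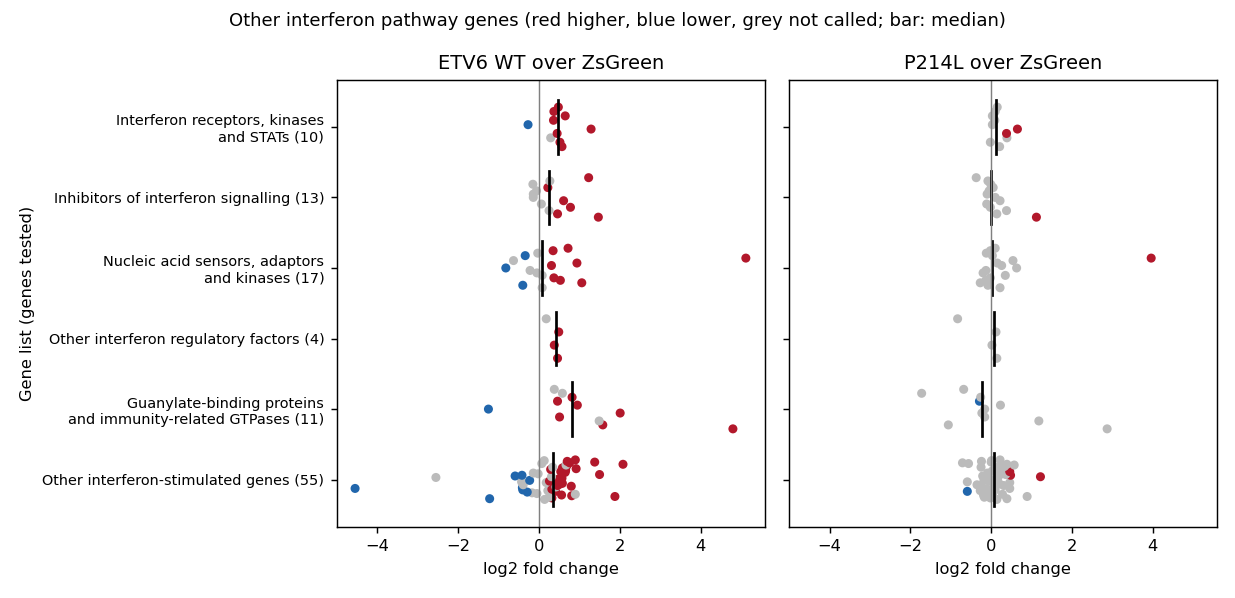
Log2 fold change of each tested gene (points) over ZsGreen for ETV6 WT and for P214L in 6 lists of the pathway outside the 45 members, with red for genes called higher, blue for genes called lower, grey for genes not called, and a bar at the median. With ETV6 WT the medians run from 0.08 for the sensors and adaptors to 0.82 for the GTPases among the lists of receptors, inhibitors, sensors, regulatory factors, further targets and GTPases, and with P214L nearly all points are grey and near 0.

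Of genes outside the 45, those whose log2 CPM followed Irf7 most closely over the 12 libraries were Slc36a2 (Pearson r 0.994), Gbp9 (0.993), Slc2a3 (0.991), Tsc22d1 (0.99) and Kash5 (0.99). Only Gbp9 is on one of the interferon lists above. The glucose transporter Slc2a3 averaged 184 CPM in ZsGreen cells, 504 in ETV6 WT cells, 147 in P214L cells and 543 in I209S P214L cells. The 12 libraries fall into 4 groups, so these are descriptions of a shared order of levels.

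In the authors' deposited table, the members called at an adjusted p under 0.05 numbered 23 higher and 5 lower for ETV6 WT over ZsGreen, 4 and 4 for P214L over ZsGreen, 23 and 5 for I209S P214L over ZsGreen, 4 and 26 for P214L over ETV6 WT, 0 and 0 for I209S P214L over ETV6 WT, and 26 and 4 for I209S P214L over P214L. The log2 fold changes in the authors' deposited table differed from those given here by at most 0.25, for Ifit3. Where genes overlap, their counts are less certain. Adar shares 7252 bases with Chrnb2 on the opposite strand, Irf9 shares 123 bases with Rnf31 on the same strand and Irf7 shares 45 bases with Phrf1 on the opposite strand. Over the 12 libraries Chrnb2 had 3234 counts against 24586 of Adar, Rnf31 8437 against 9135 of Irf9, and Phrf1 22419 against 8759 of Irf7. Ifitm2 shares 1101 bases with Gm45717 on the same strand, a gene with 0 counts. Ifitm3 shares 1185 bases with a noncoding RNA gene on the opposite strand, which had 30 counts over the 12 libraries. Some other members overlap genes too.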

How the data were processed

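RNA of 12 Ba/F3 libraries (4 groups of 3) was sequenced after poly-A selection, per the labels' protocols. Reads were aligned with HISAT2 2.0.5 to mm39 and counted with featureCounts 1.5.0-p3, per the submitters' processing notes, and the annotation release is not given in the sources used here. The deposited table holds raw counts per gene, FPKM and the authors' log2 fold changes and p-values. The deposited FPKM equal counts over gene length and library total, scaled by a factor of 0.967 to 1.012.

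Counts were tested in R 4.3.3 with edgeR 4.0.16 (filterByExpr, TMM, quasi-likelihood, 1 mean per group over all 12 libraries). P-values were adjusted by Benjamini-Hochberg over the 14794 genes tested, a call is an adjusted p under 0.05, and 95% intervals come from the same fit. The script was tested on simulated data for ETV6 WT against ZsGreen. It recovered 48 of 100 genes changed 1.5-fold and 71 of 100 changed 2-fold, with 3 false calls in a test of 14322 genes, changed ones included. Only these genes were changed, a far smaller share than the 37.7% called between ETV6 WT and ZsGreen in the data. The rates therefore need not hold for the calls given here. DESeq2 1.42.0 and limma-voom (limma 3.58.1) were among 20 alternatives. The protocol text covers libraries with and without strand, so strandedness is not known. Intervals and floors of 3 counts cover counting error only.

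The members and lists were chosen with earlier results of these data known. Values in every library are given for Irf1, Irf7, Irf9, Stat2 and the members among the 18 smallest p of any difference, for Ifit2 (added after its values were seen), and group means for the other tested members. From each other list the 3 tested genes with the smallest such p are named, plus Ifnar1, Ifnar2, Socs1, Irf8 and detected ligands, and a few listed genes are not reported here. The alternatives for the other lists and their genes were added after seeing the data. Samples sharing a replicate number were not treated as paired.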

Additional observations from a re-analysis of the deposited data

How the results depend on the processing

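Of 4551 recomputed values of members and comparisons, 4459 kept their side of the threshold, 49 lost it, 43 passed it anew and 0 changed direction. The calls that changed belong to 25 of 228 pairs of member and comparison. Among the counts of members called, that with P214L against ZsGreen was the 1 to move by more than 1.5 times, from 6 to 3 at an adjusted p under 0.01 and to between 3 and 8 when 1 library was left out, and the cause was not tested. With ETV6 WT against ZsGreen 26 to 30 members were called over all alternatives, with I209S P214L against ZsGreen 28 to 31, with P214L against ETV6 WT 27 to 31, with I209S P214L against P214L 27 to 31, and with I209S P214L against ETV6 WT 0 throughout. With the replicate number as a block, the counts in the order of the report's comparisons were 29, 9, 29, 30, 0 and 30. Replicates with the same number correlated at -0.061 to 0.528 in their deviations from group means, and others at -0.392 to 0.161. Between ETV6 WT and I209S P214L, libraries of the same number correlated at 0.528, 0.079 and 0.254 for numbers 1, 2 and 3. Whether libraries of the same number share an origin was not tested. Depth limits the members with few reads, since those under 120 counts could not be tested.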
